A study of Mus musculus with 2 samples.

Results

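The mouse cytochrome P450 genes were examined for the histone mark H3K27me3 in MEL cells. They were chosen by symbol alone, as protein-coding genes of the GENCODE M21 annotation (GRCm38, the build also called mm10) whose symbol is Cyp followed by a family number, a subfamily letter and a gene number. That rule gave 98 of 21911 protein-coding genes. MEL is an immortalized mouse erythroleukaemia line, which the labels give as an analog of the human leukaemia line K562. The series holds 1 group, for which no treatment is labelled, with 2 biological replicates, each immunoprecipitated with an antibody against H3K27me3 and no other condition. Both replicates were compared with the same control alignment, and whether they came from separate cultures is not stated, so the spread between them may be technical. Peaks were deposited per replicate, for both replicates together (the pooled list) and as a replicated list derived from these 3.

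Replicate 1 held 70901 peaks over 16.1 Mb of chromosomes 1 to 19, X and Y, and replicate 2 held 106995 peaks over 23.9 Mb. The replicated list held 38298 peaks over 13 Mb, which is 0.477% of these chromosomes. Peaks were short, with a median of 182 bp in each replicate, and most were weak: −log10 q reached 2 in 10.9% of replicated peaks. The lists give peaks without read counts, which leaves the depth unknown. A base outside a peak is therefore not shown to lack the mark. The lists also hold no expression values, so the label of the line could not be checked against marker genes.

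Cytochrome P450 enzymes are haem proteins that oxidise their substrates with molecular oxygen. Families Cyp1 to Cyp3 mainly act on drugs and other foreign compounds, Cyp4 enzymes hydroxylate fatty acids, and other families make or break down steroid hormones, bile acids, vitamin D and retinoic acid. Most are best known from liver, kidney, gut and steroid-producing glands, and many lie in arrays of near-identical copies. H3K27me3 is laid down by Polycomb repressive complexes and is found over silent genes, often around CpG-rich promoters.

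A set of 5 stretches of GRCm38 sequence carries the results, each from the NCBI RefSeq assembly and written 5′ to 3′. The peak with the highest signal value in any P450 gene lay in Cyp1a1, and 300 bases around its summit (chr9:57695830-57696129, plus strand) held 4 CG pairs and 45.7% GC. Beside it lay the next peak towards the inner start of Cyp1a1. The 300 bases of that peak with the most motif matches (chr9:57696550-57696849, plus strand) held 17 CG pairs and 65.3% GC. The replicated peaks within 1 kb of a P450 gene start were those of Cyp11a1 (chr9:58006623-58006877, plus strand) and Cyp3a13 (chr5:137921050-137921287, minus strand), with 2 and 0 CG pairs. Cyp26a1 is shown as a CpG-rich promoter without a peak, by the 250 bases before its start (chr19:37697548-37697797, plus strand), with 20 CG pairs. Capitals mark CG pairs, except in the Cyp1a1 stretch beside the inner start, where they mark TNGCGTG on either strand, the core letters of the element bound by the aryl hydrocarbon receptor.
Cyp1a1 strongest peak: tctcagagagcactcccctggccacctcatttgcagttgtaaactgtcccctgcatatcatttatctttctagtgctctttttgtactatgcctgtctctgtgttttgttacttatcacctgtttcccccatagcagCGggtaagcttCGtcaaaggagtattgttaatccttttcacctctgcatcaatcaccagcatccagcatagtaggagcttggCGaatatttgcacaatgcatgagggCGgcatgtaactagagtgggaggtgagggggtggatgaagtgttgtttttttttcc
Cyp1a1 peak beside the inner start: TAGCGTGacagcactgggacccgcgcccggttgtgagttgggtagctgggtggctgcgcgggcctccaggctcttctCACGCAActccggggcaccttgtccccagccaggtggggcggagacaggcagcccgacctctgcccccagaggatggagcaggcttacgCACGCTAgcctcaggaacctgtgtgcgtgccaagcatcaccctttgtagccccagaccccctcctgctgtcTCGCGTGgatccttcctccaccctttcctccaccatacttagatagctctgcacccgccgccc
Cyp11a1 peak after the start: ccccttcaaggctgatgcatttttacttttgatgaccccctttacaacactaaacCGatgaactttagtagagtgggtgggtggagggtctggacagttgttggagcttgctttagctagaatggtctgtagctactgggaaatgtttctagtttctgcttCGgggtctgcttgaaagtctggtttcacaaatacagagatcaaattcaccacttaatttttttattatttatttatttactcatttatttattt
Cyp3a13 peak after the start: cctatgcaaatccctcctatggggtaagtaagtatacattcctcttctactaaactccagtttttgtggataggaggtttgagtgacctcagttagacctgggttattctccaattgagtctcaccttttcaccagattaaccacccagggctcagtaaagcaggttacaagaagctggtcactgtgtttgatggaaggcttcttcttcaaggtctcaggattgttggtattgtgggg
Cyp26a1 before the start: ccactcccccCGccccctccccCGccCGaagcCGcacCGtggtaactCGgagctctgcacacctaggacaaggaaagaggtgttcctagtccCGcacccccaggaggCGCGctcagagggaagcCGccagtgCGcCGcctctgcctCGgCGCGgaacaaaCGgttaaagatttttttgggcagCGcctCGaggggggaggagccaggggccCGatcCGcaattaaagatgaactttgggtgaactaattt

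Few P450 genes carried peaks at their start, and those with coverage over the gene body were led by the Cyp1 family and Cyp11a1. A gene start, the outermost annotated 5′ end with 1 kb to each side, overlapped a replicated peak in 2 of 98 P450 genes (2.04%), Cyp11a1 and Cyp3a13. Over all protein-coding genes the share was 3.0%. In the replicates' own lists the P450 count was 4 genes in replicate 1 (4.08%, against 4.46% of all genes) and 6 in replicate 2 (6.12%, against 6.28%). These shares lay near the background, so the count is no result about P450 genes. When every protein-coding transcript start was used, 3 P450 genes had a replicated peak (3.06%, against 3.95% of all genes), the added gene being Cyp1a1.

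The replicates shared only part of these start calls. Cyp11a1, Cyp1a2 and Cyp2d22 had a start peak in both replicates' own lists, which is 3 of the 4 genes marked in replicate 1 and 3 of the 6 in replicate 2. At Cyp1a2, a liver enzyme that metabolises caffeine, and at Cyp2d22, the peaks of the replicates did not overlap each other, and the replicated list had none there. At Cyp1a2 the replicate 1 peak lay upstream of the start, and the replicate 2 coverage lay mostly in the gene. Cyp4a32 was marked in replicate 1 only, by 160 bp. Marked in replicate 2 only were Cyp3a13, by 312 bp, Cyp19a1, by 140 bp, and Cyp7a1, by 124 bp. So 1 of the 2 genes called in the replicated list, Cyp3a13, had no peak at its start in replicate 1.

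A replicated peak lay somewhere in the gene body of 14 P450 genes (14.3%), against 11.5% of all protein-coding genes. In replicate 1 the count was 16 genes (16.3%, against 16.4%), and in replicate 2 it was 21 genes (21.4%, against 20.4%). These shares, too, lay near the background. Both replicates marked 15 genes, which is 93.8% of those in replicate 1 and 71.4% of those in replicate 2, and 76 of 98 had no body peak in either. The 14 genes held 40 replicated body peaks with a median width of 276 bp. Of these, 29 overlapped a peak in both replicates' own lists, 3 in replicate 1 only and 8 in replicate 2 only. A −log10 q of 2 was reached by 6 of the 40 (15.0%), against 10.9% of all replicated peaks. These 6 peaks lay in Cyp1a1, Cyp11a1, Cyp1b1, Cyp27a1 and Cyp4x1. That of Cyp4x1 overlapped replicate 2's peaks by 154 bp and none of replicate 1's.

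The covered bases were concentrated in a few genes. Replicated peaks covered 13814 bp of P450 gene bodies, or 0.527% of 2623 kb, with 0.555% in replicate 1 and 0.948% in replicate 2. The same shares over all protein-coding genes were 0.528%, 0.639% and 0.952%. Cyp1a1, Cyp1a2 and Cyp11a1, all on chromosome 9, held 61.8% of the covered P450 bases. On that chromosome the 5 P450 genes were covered over 5.79% of their bodies, against 1.00% for all its protein-coding genes, and the other 93 P450 genes were covered over 0.213%. The median P450 gene, like the median protein-coding gene, had no covered base.

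**Figure D1:**
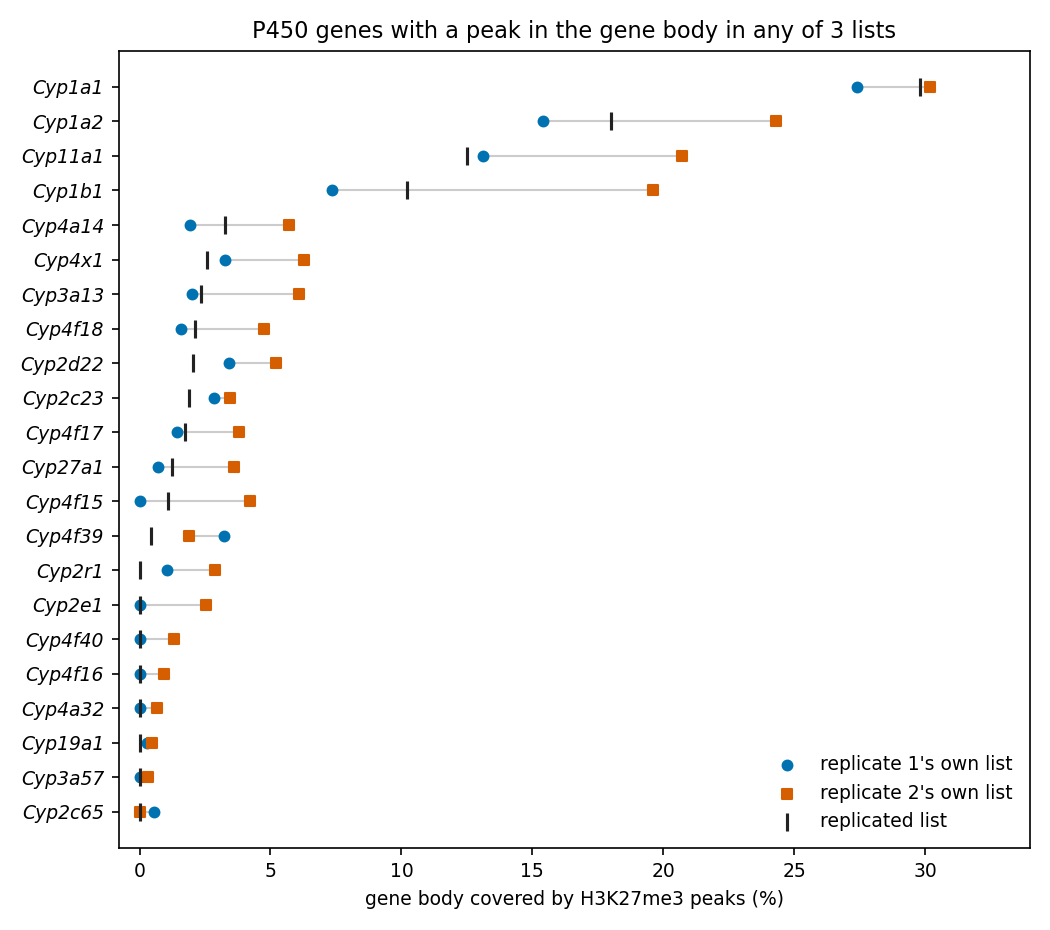
Percent of the gene body covered by H3K27me3 peaks (horizontal axis) in the 22 P450 genes with a body peak in either replicate, with circles for replicate 1, squares for replicate 2 and bars for the replicated list. Cyp1a1, Cyp1a2, Cyp11a1 and Cyp1b1 stand at 10.2% or more in the replicated list, and no other gene passes 3.26%.

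The Cyp1 enzymes, which oxidise aromatic hydrocarbons and are induced through the aryl hydrocarbon receptor, were the most covered family. Body peaks lay in 3 of 3 genes, against 11.5% of all genes. Of their bases 20.3% were covered, with 17.6% in replicate 1 and 25.1% in replicate 2. For all gene bodies these shares were 0.528%, 0.639% and 0.952%. Cyp1a1 and Cyp1a2 lie side by side, so they are not independent of each other. Cyp1a1 (ENSMUSG00000032315.6, chr9:57687928-57703824, plus strand) was covered over 29.8% of its body by replicated peaks, 27.4% by those of replicate 1 and 30.2% by those of replicate 2. Its neighbour Cyp1a2 (ENSMUSG00000032310.4, chr9:57676937-57683703, minus strand) was covered over 18.0%, 15.4% and 24.3%. Cyp1a1 stood above all other P450 genes in both replicates, and its range did not overlap that of Cyp1a2. Cyp1b1 (ENSMUSG00000024087.4, chr17:79701537-79715061, minus strand), which also activates polycyclic hydrocarbons, was covered over 10.2%, 7.36% and 19.6%. Its 5 replicated peaks all overlapped exons and untranslated sequence, and none lay within 1 kb of its start. The ranges of Cyp1a2, Cyp11a1 and Cyp1b1 overlapped, but each replicate ranked them in that order. The shares were 15.4%, 13.1% and 7.36% in replicate 1 and 24.3%, 20.7% and 19.6% in replicate 2. An order seen in only 2 replicates is not firm.

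Within Cyp1a1 the coverage lay around the inner of its 2 annotated starts. The outer start, at 57687928, had no peak within 1 kb in any of the 4 lists. The inner start, at 57697613, which is the one that RefSeq's promoter table uses, had 1327 bp covered within 1 kb by replicated peaks (1105 bp in replicate 1 and 1489 bp in replicate 2). From here on, paired values in brackets are those of replicate 1 and replicate 2, in that order. The stretch from the outer to the inner start was covered over 43.0% (39.2% and 38.2% in the replicates), and the stretch from the inner start to the gene end over 9.24% (8.89% and 17.6%). Both replicates thus had more of the upstream stretch covered, and their values for the 2 stretches did not overlap. The strongest peak (chr9:57695245-57696195, 951 bp) had a −log10 q of 5.82, and the next (chr9:57696298-57697394, 1097 bp) one of 2.52. Both are intronic in the transcript from the outer start and upstream of the inner one.

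The peak just before the inner start held most of the matches to TNGCGTG near this start. Of 7 matches in the 2400 bases before the inner start, searched on both strands, 6 lay in this peak, at 1208, 1063, 986, 897, 826 and 493 bp before the start, and the match at 1384 bp lay in no replicated peak. The stretch printed above was picked as the window with the most matches, 4, so it cannot be set against other windows, and it held 17 CG pairs, which the motif contains. Over other sequence, 1.87% of 38298 windows of 300 bases around replicated peak summits held a match, as did 5.07% of 32851 RefSeq promoters of the same length, with a median of 2 and 7 CG pairs. Among 85 RefSeq promoters of 75 P450 genes, 1 held a match (1.18%), that of Cyp2c68. A match is a string of letters and does not show that the receptor binds there.

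The pair Cyp1a2 and Cyp1a1 was the most covered of the P450 regions, at 22.2% of 26.9 kb (21.1% and 24.2% in the replicates). Of 4633 windows of this length along chromosome 9, set without regard to genes, 29 were covered at least as much. Of these 4633 windows, 86.1% had no replicated peak. The pair was picked by its coverage, so these counts only describe it. The 4715 bp from Cyp1a1 to Edc3 were covered over 3.10% (3.27% and 7.0%). The genes on either side, Csk (a kinase that restrains Src family kinases) and Edc3 (an mRNA decapping factor), had no peak in their bodies in any of the 4 lists. The 4224 bp between Cyp1a2 and Cyp1a1 held no replicated peak, with 279 bp covered in replicate 1 and 57 bp in replicate 2. With only replicated peaks of −log10 q at 2 or more, the pair kept 7.62%, Cyp1a1 12.9% and Cyp1a2 0%.

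**Figure D2:**
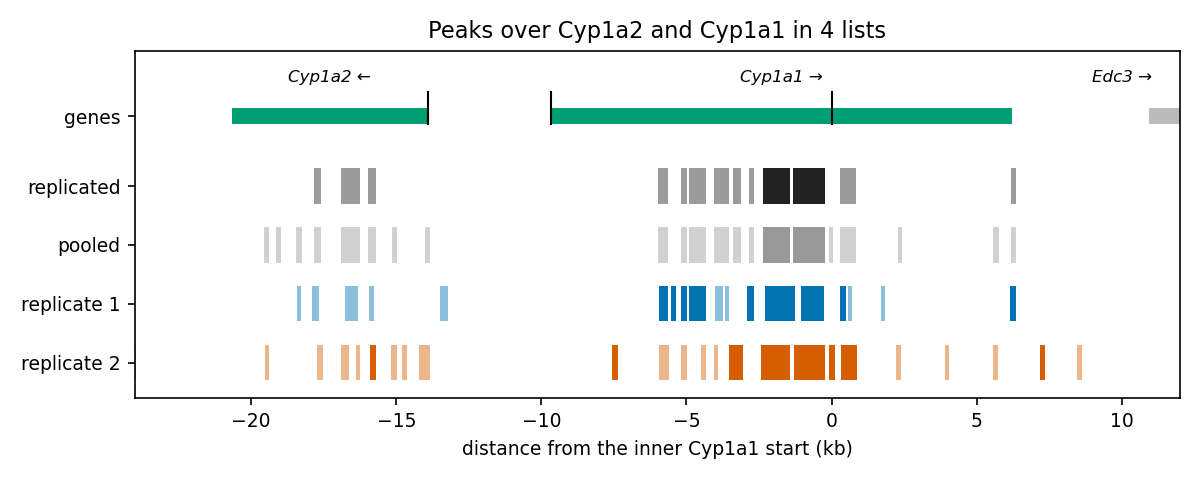
Peaks of the 4 lists over Cyp1a2 and Cyp1a1, by distance in kb from the inner Cyp1a1 start, with genes as bars, annotated P450 gene starts as vertical lines and arrows for the direction of transcription; within each list, darker blocks have a −log10 q of at least 2. Replicated peaks lie over the 2 genes, are densest before the inner start and are absent within 1 kb of the outer Cyp1a1 start.

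Of the 48 Cyp2 genes, 2 had a replicated body peak (4.17%, against 11.5% of all genes), Cyp2c23 and Cyp2d22. The family was covered over 0.0497% of its bases (0.102% and 0.152%), against 0.528% of all gene bodies (0.639% and 0.952%). Cyp2c23, an epoxygenase of arachidonic acid in kidney, was covered over 1.89% (2.86% and 3.46%). Its coverage was denser beyond its 3′ end, where 41.4% of the next 5 kb was covered (31.6% and 36.4%). That flank leads to Cpn1, a carboxypeptidase gene covered over 3.74%. Cyp2d22 was covered over 2.05% (3.42% and 5.21%), by 1 replicated peak. That peak overlapped replicate 2's peaks by 200 bp and none of replicate 1's. The 8893 bp between its start and Cyp2d11 were covered over 25.2% (21.3% and 34.8%), whereas the rest of the Cyp2d array, from Cyp2d11 to Cyp2d34, was covered over 0.228% (0.755% and 0.862%). In each replicate the gap was more covered than the rest of the array. Cyp2e1, which oxidises ethanol, had no replicated peak and 2.54% covered in replicate 2 only.

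Among the 9 Cyp3 genes, whose products include the main drug oxidases of liver and gut, 1 had a replicated body peak, Cyp3a13. That is 11.1%, near the 11.5% of all genes. Of the family's bases 0.235% were covered (0.204% and 0.664%), against 0.528% of all gene bodies (0.639% and 0.952%). Cyp3a13 (ENSMUSG00000029727.7, chr5:137892932-137921619, minus strand) lies apart from the Cyp3a array. It was covered over 2.33% (2.02% and 6.08%), and 17.2% of the 5 kb before its start was covered (7.82% and 19.5%). Its start peak, printed above, was 238 bp wide with a −log10 q of 0.11. Cyp3a11, the most studied mouse Cyp3a gene of liver, had no covered base in any list.

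**Figure D3:**
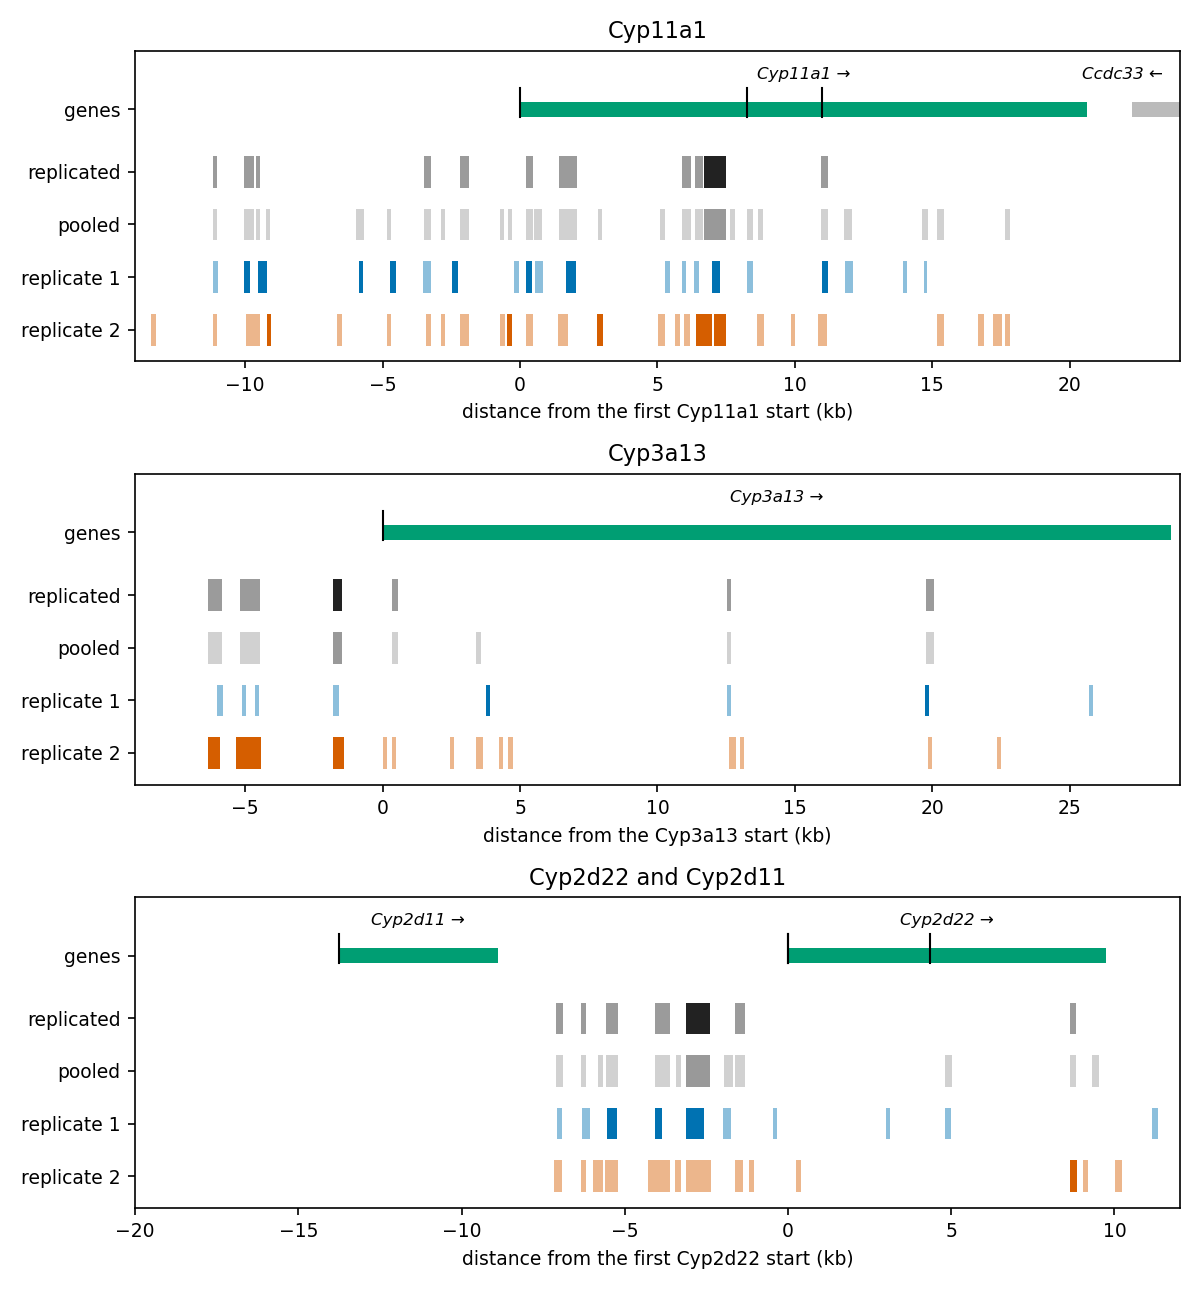
Peaks of the 4 lists by distance in kb from the start of Cyp11a1 (top), Cyp3a13 (middle) and Cyp2d22 (bottom), each drawn in its direction of transcription, with darker blocks for a −log10 q of at least 2. At Cyp11a1 and Cyp3a13 peaks lie on both sides of the start, and at Cyp2d22 replicated peaks fill 25.2% of the gap to Cyp2d11.

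The Cyp4 genes, which hydroxylate fatty acids and eicosanoids, had body peaks in 6 of 20 members (30%, against 11.5% of all genes), with 5 in replicate 1 and 9 in replicate 2, and no start marked in the replicated list. They were covered over 0.542% of their bases (0.735% and 1.5%), against 0.528% of all gene bodies (0.639% and 0.952%). Cyp4a14, a target of the fatty acid receptor PPARα in liver, was covered over 3.26% (1.94% and 5.69%) by 1 replicated peak in coding sequence. That peak had a −log10 q of 0.11. It overlapped replicate 2's peaks by 301 bp and none of replicate 1's, whose covered bases lay elsewhere in the gene. Cyp4x1, known from brain, was covered over 2.58% (3.25% and 6.28%), and Cyp4f18, a neutrophil enzyme that acts on leukotriene B4, over 2.12% (1.57% and 4.77%). Replicate 2 was higher in each of these 3, as it was over all gene bodies. Cyp4f17 was covered over 1.75% (1.42% and 3.81%), Cyp4f15 over 1.08% (0% and 4.21%), and Cyp4f39 over 0.419% (3.22% and 1.87%). For Cyp4f39 both replicates' own lists covered more than the replicated list. The last 3 lie in 1 array of 6 Cyp4f genes, so they are not independent of each other.

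Among 6 genes of steroid hormone synthesis, 1 had replicated peaks, Cyp11a1. Its body peaks made the share 16.7%, against 11.5% of all genes, which is no result about so small a group. Cyp11a1 encodes the mitochondrial enzyme that cuts the side chain of cholesterol, the entry step of steroid synthesis. Cyp11a1 (ENSMUSG00000032323.13, chr9:58006411-58027023, plus strand) was covered over 12.5% of its body, 13.1% in replicate 1 and 20.7% in replicate 2, by 6 replicated peaks. Within 1 kb of its outermost start 255 bp were covered, with 699 bp and 607 bp in the replicates. It has 3 annotated starts, and the stretch up to the next of them was covered over 28.1% (20.3% and 30.4%), while the stretch after the innermost was covered over 2.32% (8.29% and 12.4%). The 5 kb before the gene was covered over 11.4% (17.2% and 22.8%). Peaks also lay in its neighbours Sema7a, at 2.78% (0% and 4.37%), and Ccdc33, at 3.79% (4.52% and 6.76%). At Sema7a they were thus in replicate 2's own list only. At a −log10 q of 2 or more Cyp11a1 kept 3.86% and lost its start peak.

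The other steroid genes had no replicated peak. Cyp19a1, the aromatase gene, had 0.274% and 0.458% of its body covered in the replicates. Cyp17a1, Cyp21a1, Cyp11b1 and Cyp11b2, which act in adrenal and gonadal hormone synthesis, had no covered base in any list. By the measure of unique sequence described with the clusters, 55.5% of Cyp21a1 was unique, against 99.1% of Cyp17a1.

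In bile acid and sterol metabolism 1 of 6 genes had a replicated body peak (16.7%, against 11.5% of all genes), which is no result about so small a group. Cyp27a1, a mitochondrial sterol hydroxylase, had 1 intronic peak of 300 bp that covered 1.23% of it (0.703% and 3.59%), with a −log10 q of 2.04. Cyp7a1, the rate-limiting enzyme of bile acid synthesis, and Cyp46a1, which hydroxylates brain cholesterol, had no covered body base in any list. None of the 5 genes of vitamin D and retinoic acid turnover (Cyp24a1, Cyp27b1, Cyp26a1, Cyp26b1 and Cyp26c1) had a covered base within its body or 1 kb of its start in any list. Over all protein-coding genes 11.5% had a replicated body peak, so a count of none among 5 genes is no result about this group. In the order listed, they had 102, 47, 114, 31 and 61 CG pairs in the 2 kb around the start. The median of the P450 genes with body peaks was 32.5, and the part of CG pairs was not tested. Cyp20a1, with no assigned role, likewise had no covered base in its body or within 1 kb of its start. The same was true of Cyp51, the sterol demethylase gene, which the symbol rule leaves out.

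**Figure D4:**
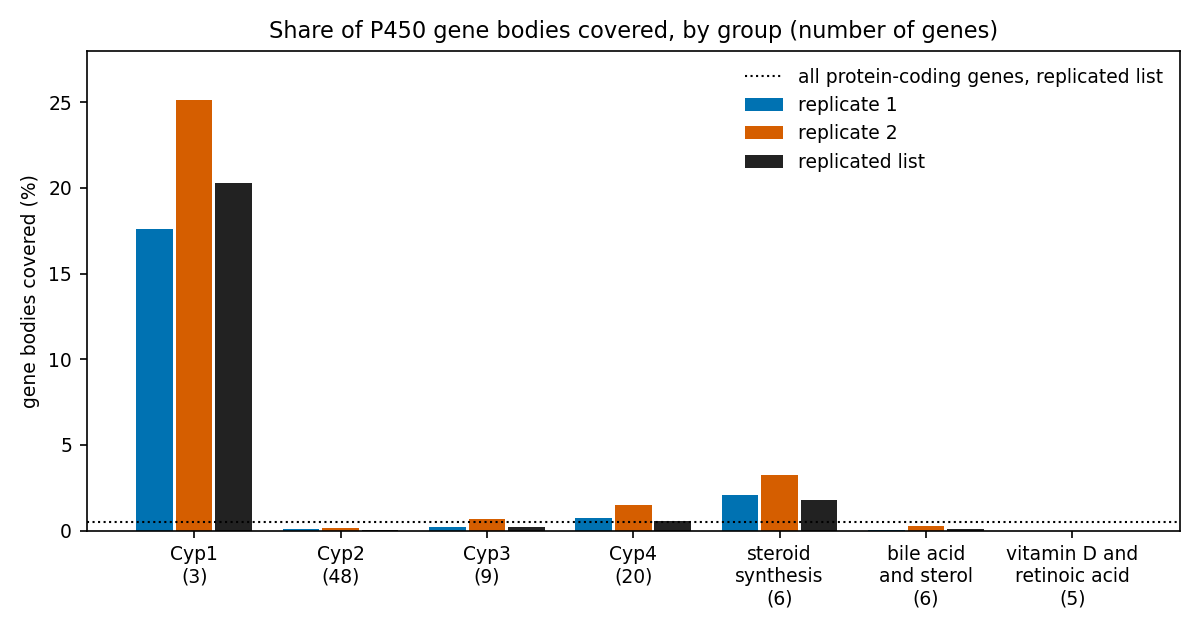
Percent of summed gene-body bases covered by peaks (bars from 0) in P450 families and functional groups, with the number of genes in brackets, for replicate 1, replicate 2 and the replicated list; the dotted line marks all protein-coding genes in the replicated list, 0.528%. In that list the 3 Cyp1 genes reach 20.3% and the 6 steroid genes 1.78%. Cyp2, Cyp3 and the bile acid group stay below the line there, and the 5 vitamin D and retinoic acid genes are at 0. The Cyp3 bar of replicate 2, at 0.664%, is above the line but below the 0.952% of all genes in that replicate.

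Genes with at most 100 kb between neighbours were joined into clusters, which gave 16 clusters with 74 genes and 24 genes on their own. The clusters were covered over 0.251% of their span, which includes the sequence between genes, and the lone genes over 0.903% of their bodies. These shares thus have unlike bases. Each rested largely on few genes. Cyp1a2 and Cyp1a1 held 5959 of 10781 covered bp in clusters. Cyp11a1 and Cyp1b1 held 2574 and 1383 of 6549 covered bp in lone genes. Of these 40 regions, 28 had no replicated peak, and 20 had no peak in any of the 4 lists. For comparison, of windows as long as each region on its own chromosome, 26.1% to 97.6% held no replicated peak. The 4 arrays of 8 or more genes hold 35 genes over 2415 kb and were covered over 0.0249%, and 3 of them had no replicated peak. The Cyp2j array, with 8 genes over 637 kb, had no peak in any list, and neither had the 5 genes from Cyp3a41a to Cyp3a59 over 419 kb. Of windows of these lengths on their chromosomes, 53.5% and 63.0% likewise held no replicated peak. The 9 genes from Cyp4a29 to Cyp4b1 had 2 replicated peaks, 0.148% of the span (0.208% and 0.453%). The 6 genes from Cyp4f39 to Cyp4f15 were covered over 0.372% in the replicated list but 1.53% and 1.93% in the replicates.

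Sequence that occurs more than once in the genome varied with these results. A stretch of 31 bases was called unique if it occurred once in the 21 chromosomes on either strand. In the 4 large arrays 51.7% to 72.9% of such stretches were unique. Of 36 P450 genes with at least 90% unique stretches, 13 had a replicated body peak (36.1%), and 1.83% of their bases were covered. Of the other 62 genes, 1 had one (1.61%), Cyp4f17, and 0.0223% of the bases were covered. The shares over all protein-coding genes were 11.5% and 0.528%, and unique stretches were counted for P450 genes only. The 36 genes include Cyp1a1, Cyp1a2 and Cyp11a1, which held 61.8% of the covered P450 bases. The medians were 94.4% unique in the P450 genes with a body peak and 76.4% in those without. How the authors treated reads that align to several places is not given in the sources used here, and the part of repeated sequence in the empty arrays was not tested. Unique sequence was also found without peaks: 23 of the 36 genes had no replicated body peak, Cyp26a1, Cyp26b1, Cyp17a1 and Cyp7a1 among them.

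**Figure D5:**
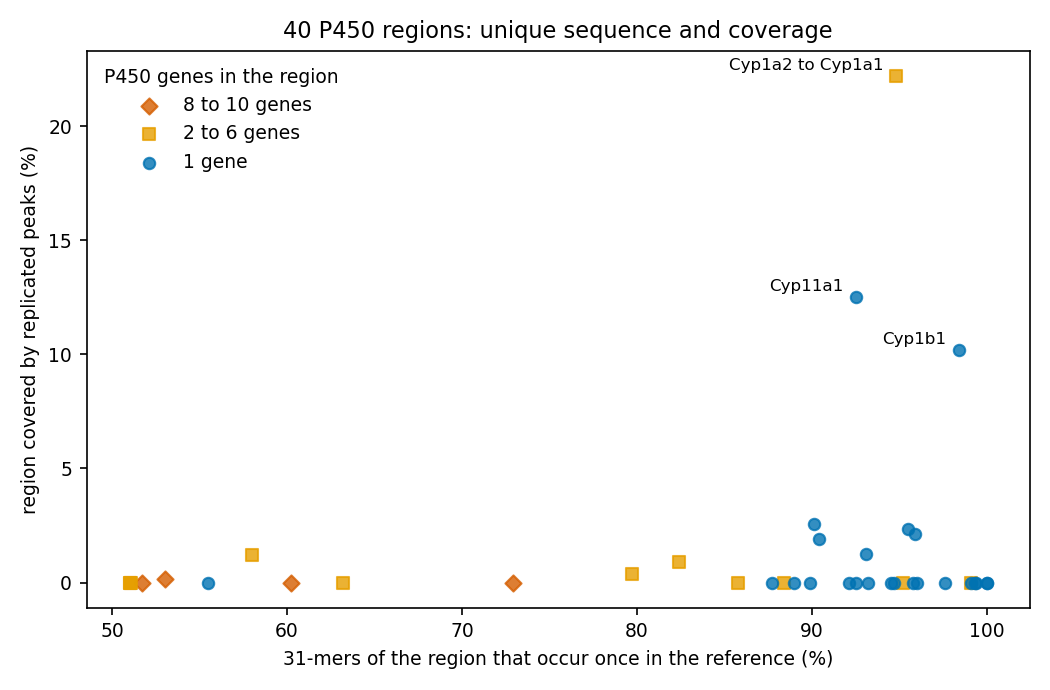
Percent of each P450 region covered by replicated peaks (vertical axis) against the percent of its 31-base stretches that occur once in the reference (horizontal axis), for 24 lone genes (circles), 12 clusters of 2 to 6 genes (squares) and 4 clusters of 8 to 10 genes (diamonds). The 3 regions above 10% are Cyp1a2 to Cyp1a1, Cyp11a1 and Cyp1b1, each over 90% unique, and the large arrays lie at or near 0.

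Base composition also differed between P450 genes with and without peaks. The 14 genes with a replicated body peak had a median body GC of 45.7% and a median of 32.5 CG pairs in the 2 kb around the start. The 84 genes without had 42.5% and 14.0. Over all protein-coding genes the median GC was 45.7% with a body peak and 45.2% without, and the CG count ran the other way, with 45 against 64. The large arrays had a median GC of 40.3%, and the part of base composition in the counts was not tested.

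As a reference for the totals, the replicated peaks were moved together around each chromosome 1000 times, which keeps their widths and spacing. The shifted peaks marked a mean of 2.41 P450 starts, with a central 95% of 0 to 7, against 2 observed. They marked a mean of 10.2 bodies (2 to 20), against 14 observed. They covered a mean of 14853 bp (1057 to 43663), or 0.566% of the bodies, against 13814 bp and 0.527% observed. All 3 observed totals lay inside these ranges. Weighting each chromosome by its number of P450 genes gave 2.77 starts and 11 bodies at the rates of all genes.

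Genes that work with P450 enzymes were counted from lists of their own, beside 3.0% of all genes at the start and 11.5% in the body. Of 13 electron donors and haem partners, which feed electrons or haem to P450 enzymes (Por and Alas1 among them), none had a replicated peak at the start or in the body. Of 22 transcription factors that control P450 genes, 2 had a start peak and 6 a body peak. The genes named here were chosen after their values were seen. Vdr, the vitamin D receptor, had 1261 bp covered within 1 kb of its start (1427 and 1181 bp in the replicates). Nr1i2, the xenobiotic receptor that induces Cyp3a genes, had 486 bp (605 and 1022 bp) and 4.44% of its body covered. Nr0b2, a repressor that lowers bile acid synthesis, had the highest body share of the list, 11.1% (14.3% and 8.76%). Ahrr, the repressor of the aryl hydrocarbon receptor, was covered over 3.96% (5.05% and 6.12%), while the receptor gene Ahr and its partner Arnt had no covered base in any list. Of 76 conjugation and other oxidation genes, 4 had a start peak (5.26%) and 12 a body peak (15.8%), led by the flavin monooxygenase gene Fmo5 at 18.4% (20.4% and 19.6%).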

How the data were processed

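H3K27me3 was measured by ChIP-seq in 2 biological replicates of the MEL line, grouped and numbered as the labels give them. Per the labels' text descriptions, the authors called peaks on mm10 for each replicate against 1 shared control alignment and for both replicates together, and derived the replicated list from these. What rule, aligner and caller served for this is not given in the sources used here. Each deposited peak carries a signal value, a score whose definition is not stated, and the authors' −log10 p and −log10 q. Depth is unknown, as the files hold no reads or read counts, and no counting interval was given. A list on mm9 was not used, since builds were not mixed.

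Covered bases were taken from the union of peaks on 21 chromosomes, with Python 3.11.15, NumPy 2.4.6, Numba 0.67.0 and matplotlib 3.10.9, against GENCODE M21 genes and the GRCm38 sequence. Where a symbol occurred more than once, its longest gene was kept. A start or body was marked where at least 1 bp was covered. The code was tested on simulated data. With 1 group there is no condition to test, and no p-value is given. Main values are given with those of each replicate.

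The members and lists were chosen with earlier results of these data known. Named genes are the P450 genes with a replicated start peak, the 12 with the most covered body bases, up to 6 with a start marked in 1 replicate only, the genes beside the most covered cluster, and a fixed set of well-known P450 genes. Others were named after their values were seen.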

Additional observations from a re-analysis of the deposited data

How the results depend on the processing

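The count of starts, 2 in the replicated list, changed with the list, the cut-off and the window. It was 5 in the pooled list (5.10%, against 4.48% of all genes) and 4 to 6 in the replicates' own lists. It was 0 among replicated peaks with −log10 q of at least 2, a level that 10.9% of all replicated peaks reached. It was 1 in the upper 50% by signal value. It was 5 with 2.5 kb and 10 with 5 kb on each side. The count of bodies, 14, fell to 5 at −log10 q of at least 2. For these cut-offs and windows the share of all genes is not given here, so the counts are no result about P450 genes. The share of P450 bodies covered, 0.527%, was 0.555% and 0.948% in the replicates' own lists. It was 0.139% at −log10 q of at least 2 and 0.852% with peaks joined within 3 kb. The share of clusters covered, 0.251%, was 0.383% in the pooled list and 0.359% to 0.461% in the replicates' own lists. It was 0.0790% at −log10 q of at least 2, 0.454% with clusters joined within 50 kb and 0.442% with peaks joined. The named P450 genes together, 2.81% covered, ranged from 2.70% to 4.69% in the replicates' own lists and fell to 0.762% at −log10 q of at least 2. Without the P450 genes of chromosome 9, chosen after seeing the data, 1 start was marked and 0.213% of bodies was covered. The causes were not tested. No P450 gene lies on chromosome 11, so leaving that chromosome out changed nothing. No paired analysis was possible because the series has 1 group. With depth unknown, weak or missing peaks cannot be told apart from shallow sampling, and narrow peaks may split broad domains.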
